A study of Mus musculus with 6 samples.

Results

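The ligands of the tumour necrosis factor (TNF) superfamily and their receptors were examined in mouse spleen after exposure to perfluorooctane sulfonate (PFOS), a persistent fluorinated surfactant. Members were the genes whose symbol begins with Tnfrsf or Tnfsf, with Cd40, Cd27, Fas, Fasl, Cd40lg, Lta, Ltb, Ltbr and Tnf added, as the platform annotation assigns them to a probe set with a single symbol. The rule found 36 genes on 58 probe sets, among 18193 genes on 34945 probe sets of that kind. Of the members, 23 were receptors and 13 carried a ligand symbol. One of the latter, Tnfsf13os, is a transcript from the strand opposite Tnfsf13 and not a ligand, so counts are also given without it. A further 3 probe sets with several symbols, among them those of Tnfsf12 (TWEAK) and Tnfsf13 (APRIL), were not used here.

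The labels give the source as spleen of female Balb/c mice, 6 to 8 weeks old. The control group is labelled as having no exposure, and a vehicle given by stomach tube is not named for it. The PFOS group received 10 mg per kg body weight each day for 3 weeks by that route. Each group had 3 samples called biological replicates, and each sample was read on 1 Affymetrix Mouse430_2 array. Nothing beyond that word says that the samples were separate animals, so p-values measure the spread between these arrays, which may be technical. Values are RMA levels on a log2 scale, so that a difference of 1 is a 2-fold change, and they are relative to the whole distribution of an array.

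TNF superfamily ligands are mostly membrane-bound or shed trimers that cluster their receptors on neighbouring cells. Some receptors with a death domain can start cell death, and many of the receptors recruit TRAF adaptors and activate NF-kB. In the spleen these proteins support B cell survival, costimulate T cells, and maintain the architecture of the white pulp through lymphotoxin.

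Several features of the arrays bear on all comparisons. Xist, the RNA of the inactive X chromosome, lay at 5.62 to 5.86 and the Y-linked Eif2s3y at 9.62 to 9.91 over the 6 arrays. These levels go against the label, which is female for all 6. Spleen cells were well represented: markers of B cells averaged 10.43 to 10.45 in control and 10.85 to 10.87 in PFOS. Hepatocyte markers, which do not belong to spleen, averaged 8.79 to 8.82 in control and 5.08 to 5.19 in PFOS, and all 10 of those tested were lower. Bacterial transcripts added before labelling averaged 6.65 in control and 6.11 in PFOS. Scaling the arrays on them adds 0.53 to the change of every gene, the median of all genes included, and would call 92.1% of genes higher and 5.52% lower. Scaling on ribosomal protein genes takes 0.08 away and gives 26.1% and 37.8%. Changes are therefore best read against the median of all 13101 genes tested, which was 0.05.

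The families rose more often than they fell, by small amounts. Genes were tested with limma, with p-values adjusted by the Benjamini-Hochberg method over all genes and called at an adjusted p under 0.05. A gene was tested if its level reached a floor of 5.62, the 40th percentile of probe sets, and 29 of the 36 members did. Of these, 20 were called higher in PFOS (69.0% of those tested), where 40.6% of all genes were called higher. Only 2 of the 29 were called lower, both receptors, where 26.0% of all genes were called lower. In either direction 66.6% of all genes were called. With scaling on the labelling spikes 28 of the 29 members were called higher, against 92.1% of all genes, and with scaling on ribosomal protein genes 16 were, against 26.1%. For 21 of the 29 members the lowest PFOS array exceeded the highest control array, as it did for 43.2% of all genes, and for 3 the reverse held, against 27.8%. In bulk tissue a change in the number of cells of a type and a change in RNA per cell cannot be told apart.

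Ligands and receptors were called higher in similar shares. Of 19 receptors tested, 13 rose and 2 fell, and of 10 ligand symbols tested, 7 rose and 0 fell (6 of 9 without Tnfsf13os, and likewise 6 of 9 without Tnfsf11). The median change was 0.17 over the receptors, which ranged from -0.73 to 0.68, and 0.29 over the ligands, which ranged from -0.06 to 0.63. Tnfsf11 passed the floor only through its PFOS level; without it 19 members were higher and the ligand median was 0.22, and without Tnfsf13os it was 0.36. These medians describe the members and were not tested against each other.

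**Figure D1:**
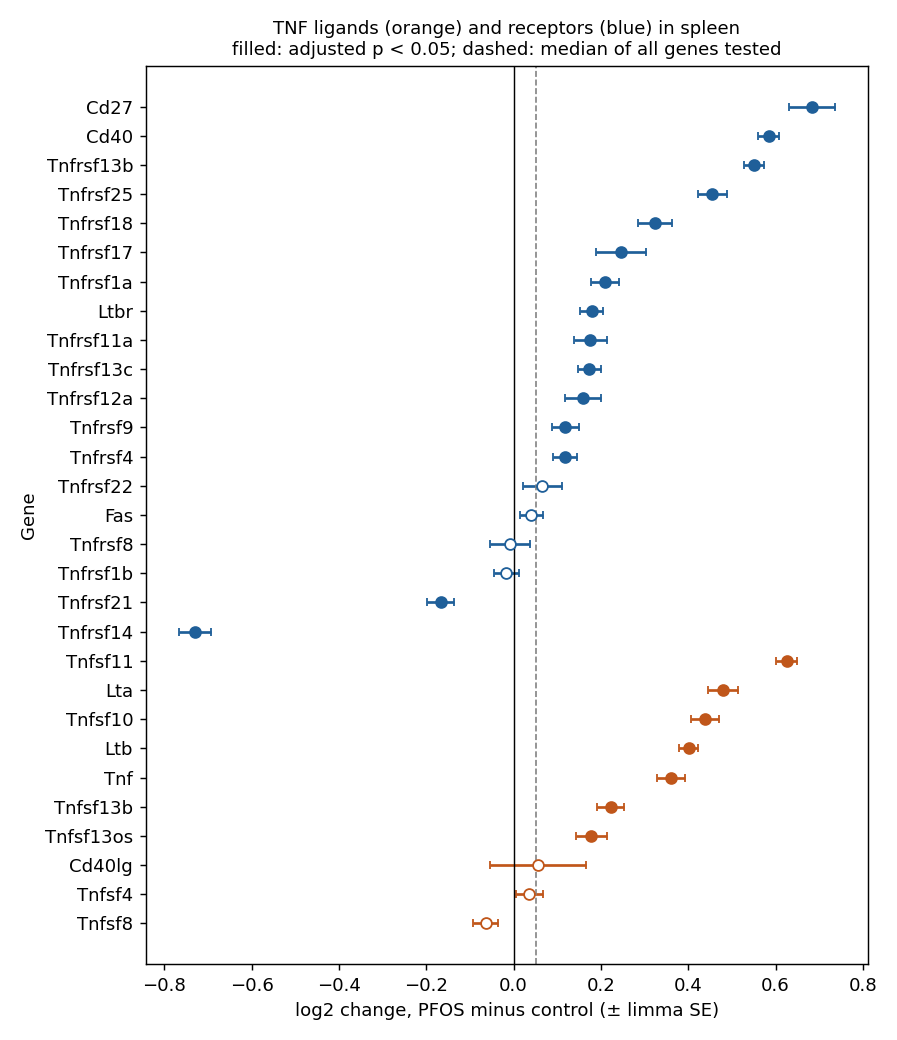
Log2 change (PFOS minus control, horizontal axis) with limma's standard error for the 29 members tested, ligands in orange and receptors in blue; filled points are called and the dashed line is the median of all genes, 0.05. The reader should see rises up to 0.68 for Cd27 and a single large fall, that of Tnfrsf14 at -0.73.

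The receptors through which B cells are helped and kept alive rose together, all 4 of 4 being called, with a median change of 0.40. Of all genes tested, 40.6% were called higher. This grouping and the role groups below were put together after the values were seen. Cd40, which receives help from T cells, read 8.84, 8.85 and 8.85 on the control arrays and 9.40, 9.45 and 9.43 on the PFOS arrays. Every PFOS array was thus higher than every control array, by 0.58 ± 0.02 (SE) (limma adjusted p = 9.58e-07). Its other 2 probe sets rose by 0.64 and 0.47. Tnfrsf13b (TACI), a receptor for the survival factors BAFF and APRIL, read 9.75, 9.76 and 9.79 in control and 10.33, 10.32 and 10.31 in PFOS. The gap of 0.55 ± 0.02 was far wider than the spread within either group (limma adjusted p = 9.94e-07). Tnfrsf17 (BCMA), the receptor of long-lived plasma cells, read 5.98, 5.89 and 5.92 in control and 6.29, 6.07 and 6.17 in PFOS. The PFOS arrays were more scattered here, and the rise was 0.25 ± 0.06 (limma adjusted p = 0.00631). Tnfrsf13c, the BAFF receptor on which mature B cells depend, rose less, by 0.17 ± 0.03, from a mean of 10.32 to 10.49.

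Markers of the cells that carry these receptors moved the same way. Of 12 B cell markers tested, 10 rose and 0 fell, the median change being 0.48. Plasma cell markers were higher in 8 of 10 cases, with a median of 0.26, and averaged 9.29 to 9.31 in control and 9.68 to 9.69 in PFOS. Cd40 and Tnfrsf13b lay above the B cell median, and Tnfrsf13c and Tnfrsf17 below it. Tnfrsf17, at 0.25, lay next to the plasma cell median of 0.26. The part that these markers have in the rise of the receptors was not tested.

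Costimulatory receptors of T cells were split. Of 7 tested, 5 rose, 1 fell and 1 was not called, where 40.6% of all genes were called higher and 26.0% lower. Cd27, a receptor of naive and memory T cells and of memory B cells, read 8.13, 7.99 and 8.03 in control and 8.83, 8.68 and 8.69 in PFOS. It had the largest rise of any member, 0.68 ± 0.05 or 1.61-fold (limma adjusted p = 2.26e-05), and changed more upward than 99.6% of genes tested. Tnfrsf25, the death domain receptor of resting and regulatory T cells, went from 6.82, 6.76 and 6.84 in control to 7.23, 7.25 and 7.30 in PFOS, a rise of 0.46 ± 0.03 (limma adjusted p = 1.54e-05). Tnfrsf18 (GITR), abundant on regulatory T cells, read 7.86, 7.92 and 7.83 in control and 8.23, 8.13 and 8.23 in PFOS. The groups did not overlap, and the rise was 0.32 ± 0.04 (limma adjusted p = 0.000216).

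The activation-induced receptors of the same group changed by 0.12 or less. Tnfrsf9 (4-1BB) and Tnfrsf4 (OX40) each rose by 0.12 ± 0.03, and on arrays scaled on ribosomal protein genes neither was called (0.04 each, limma adjusted p = 0.314 and 0.281). Tnfrsf8 (CD30) was at 5.83 in control and 5.82 in PFOS and was not called (limma adjusted p = 0.887). T cell markers were higher in 9 of 10 cases with a median of 0.41, averaging 8.87 to 8.91 in control and 9.28 to 9.29 in PFOS. Regulatory T cell markers were higher in 5 of 6 cases with a median of 0.20, from 7.33 to 7.36 in control to 7.51 to 7.56 in PFOS. Cd27 and Tnfrsf25 thus lay above the T cell median and Tnfrsf4, Tnfrsf8, Tnfrsf9 and Tnfrsf18 below it, of which Tnfrsf18 lay above the regulatory T cell median. How far these cells account for the rises was not tested.

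Tnfrsf14 (HVEM), the receptor of LIGHT and the partner of the inhibitory receptor BTLA, had the largest fall of any member tested, and Tnfrsf21 was the only other member called lower. Tnfrsf14 read 7.93, 8.00 and 8.04 on the control arrays and 7.20, 7.27 and 7.30 on the PFOS arrays. All 3 PFOS arrays lay well below all 3 control arrays, and the change was -0.73 ± 0.04, or 1.66-fold lower (limma adjusted p = 2.80e-06). Only 4.51% of genes tested had a change as low. The fall was -0.81 with scaling on ribosomal protein genes and -0.20 with scaling on the labelling spikes, where Tnfrsf14 was the only member called lower. Lists that fell on the same arrays were red cell precursors (11 of 11 lower, median -1.70, 11.36 to 11.37 in control and 9.82 to 9.83 in PFOS), dividing cells (11 of 11, median -1.48, 10.37 to 10.38 and 8.86 to 8.87) and neutrophils (6 of 8 lower and 1 higher, median -0.56, 8.75 to 8.77 and 8.23 to 8.26). Together with the hepatocyte markers above, their part in the fall of Tnfrsf14 was not tested.

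**Figure D2:**
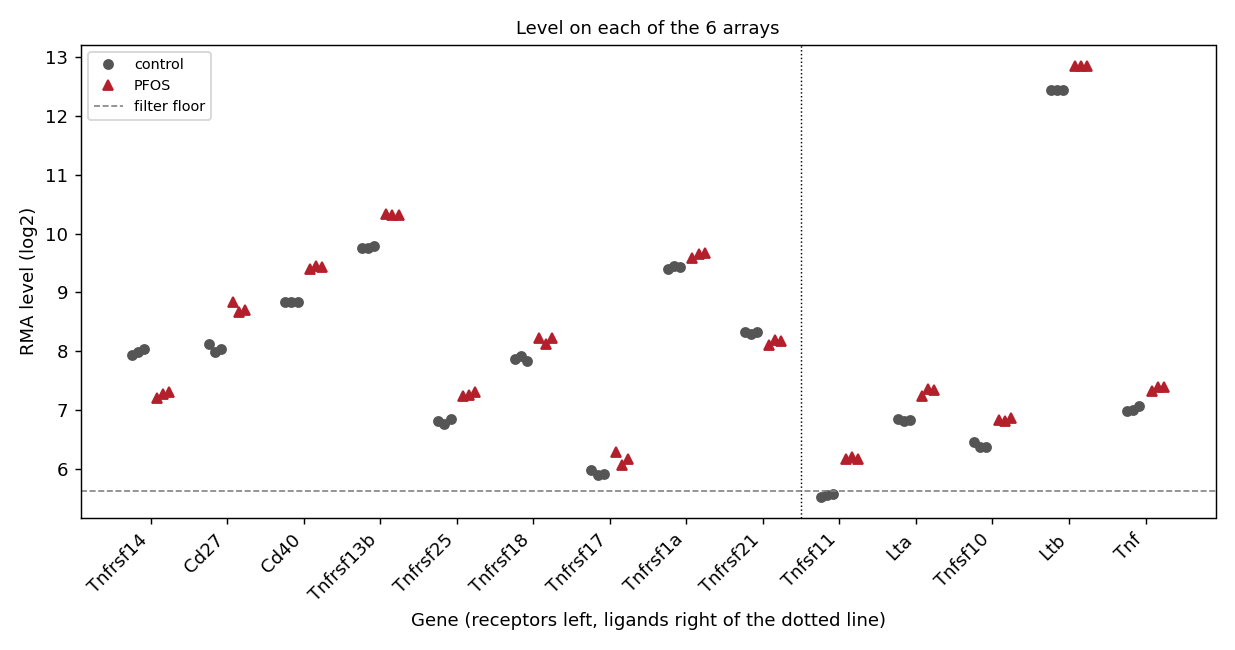
RMA level (log2, vertical axis) on each array, control as grey circles and PFOS as red triangles, for the 9 receptors and 5 ligands described array by array; the dashed line is the filter floor at 5.62. In all 14 genes the groups do not overlap, and only Tnfrsf14 and Tnfrsf21 are lower in PFOS. These genes were chosen for a large called change or a called fall, so the lack of overlap is not separate evidence. Among all genes tested, groups were likewise apart with PFOS higher for 43.2% and with PFOS lower for 27.8%. Tnfsf11 is shown although it was tested only through its PFOS level.

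Of the receptors of TNF itself, the decoy receptors and the death receptors other than Tnfrsf25, described above, 5 were tested, with 1 called higher, 1 lower and 3 not called. This grouping was made after the values were seen, and of all genes 40.6% were called higher and 26.0% lower. Tnfrsf1a, the widely expressed TNF receptor with a death domain, read 9.40, 9.46 and 9.44 in control and 9.59, 9.66 and 9.68 in PFOS, a rise of 0.21 ± 0.03 (limma adjusted p = 0.000782). Tnfrsf1b, the TNF receptor of lymphoid and myeloid cells, had overlapping groups at 8.36 in control and 8.34 in PFOS (-0.02 ± 0.03, limma adjusted p = 0.624), and its second probe set differed by 0.03. Fas, the receptor that eliminates activated lymphocytes, was at 7.23 in control and 7.27 in PFOS, and though its arrays did not overlap, the change of 0.04 ± 0.03 was not called (limma adjusted p = 0.190). Tnfrsf21 (death receptor 6) read 8.33, 8.30 and 8.33 in control and 8.10, 8.19 and 8.18 in PFOS. Its fall of 0.17 on the log2 scale was small but wider than the spread within the groups (limma adjusted p = 0.00219), and its second probe set fell by 0.28; with scaling on the labelling spikes its sign turned, to 0.37. The decoy receptor Tnfrsf22 was not called (0.07 ± 0.04, limma adjusted p = 0.220). Its probe sets under the floor went from 4.52 to 4.76 and from 3.99 to 4.14. Both were called in a limma fit of all probe sets (limma adjusted p = 0.00152 and 0.0265).

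The receptors of lymphoid organ and tissue signalling rose slightly, in all 3 cases tested, where 40.6% of all genes were called higher. Ltbr, the lymphotoxin beta receptor of stromal and myeloid cells, rose by 0.18 ± 0.03, and Tnfrsf11a (RANK), known from osteoclasts and from dendritic cells, by 0.18 ± 0.04. Tnfrsf12a (Fn14), the receptor of TWEAK, rose by 0.16 ± 0.04, with a second probe set at 0.03 that was not called; scaling on ribosomal protein genes took its call away (0.08, limma adjusted p = 0.129).

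Among the ligands, TNF and the lymphotoxins rose together. Ltb, which anchors the lymphotoxin heterotrimer in the membrane of lymphocytes, read 12.44, 12.45 and 12.45 in control and 12.85 on all 3 PFOS arrays. It was the most even of the ligands, and the rise was 0.40 ± 0.02 (limma adjusted p = 3.42e-06). Lta, its soluble partner, read 6.85, 6.82 and 6.83 in control and 7.24, 7.36 and 7.33 in PFOS, a rise of 0.48 ± 0.03 (limma adjusted p = 1.64e-05). Tnf, the founding cytokine of the family, read 6.98, 7.00 and 7.06 in control and 7.33, 7.39 and 7.39 in PFOS, a rise of 0.36 ± 0.03 (limma adjusted p = 4.74e-05). For all 3 the lowest PFOS array exceeded the highest control array, as it did for 43.2% of all genes tested. These genes are shown array by array for their large called change, so the lack of overlap is not separate evidence. LIGHT (Tnfsf14), the other ligand of Ltbr, lay under the floor on both of its probe sets, at 5.08 and 5.34 averaged over the arrays.

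Ltb, Tnf and Lta are direct neighbours in the RefSeq gene table, with 0 other protein-coding genes between them. The stretch of 100 bases just before the start of each is shown because the 3 genes moved together, from RefSeq on GRCm38.p6 and read 5′ to 3′ on the gene's strand, with matches to the kappaB consensus (10 bases, either strand) in capitals. Ltb lies at chr17:35194407-35194506 on the plus strand, Lta at chr17:35205352-35205451 and Tnf at chr17:35202008-35202107 on the minus strand.
Ltb: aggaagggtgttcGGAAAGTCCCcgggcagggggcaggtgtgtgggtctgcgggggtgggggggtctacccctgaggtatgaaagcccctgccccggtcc
Lta: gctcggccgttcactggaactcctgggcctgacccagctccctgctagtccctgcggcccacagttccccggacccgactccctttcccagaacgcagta
Tnf: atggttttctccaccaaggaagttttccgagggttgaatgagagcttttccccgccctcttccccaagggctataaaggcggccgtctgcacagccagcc

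Ltb has the match from base -87 to base -78, counted from the start of transcription, and neither Lta nor Tnf has one in the whole window of 250 bases before to 50 after the start. Windows were found for 28 of the 36 members, and 3 of them held a match, Ltb, Tnfrsf8 and Tnfrsf9. Over all 32851 windows the share with a match was 4.51%, and over the 32 windows of members it was 9.38%. A match describes letters and is not evidence of binding.

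Some receptors that lie close together had the same call, and the close cases listed here are picked ones. Over all genes tested, 40.6% were called higher and 66.6% in either direction. The direct neighbours Tnfrsf22 and Tnfrsf23 could not be compared, as Tnfrsf23 lay under the floor. Whether neighbours move together was not tested. Cd27, Ltbr and Tnfrsf1a lie in a row with 1 other protein-coding gene in each gap, and all 3 rose, by 0.68, 0.18 and 0.21. Tnfrsf1b and Tnfrsf8 are direct neighbours and neither was called. Tnfrsf4 and Tnfrsf18 are direct neighbours too, and both rose, by 0.12 and 0.32. Tnfrsf14, the next member on the same chromosome, lies 39 protein-coding genes from Tnfrsf4 and fell.

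The remaining ligands differed among themselves. Tnfsf11 (RANKL), the osteoclast factor that T cells also make, read 5.53, 5.56 and 5.57 in control and 6.17, 6.20 and 6.16 in PFOS, a fitted difference of 0.63 ± 0.02. Its control level lies under the floor, so it was tested only through its PFOS level and had to differ. Neither its size nor its call is support for a rise of the family. The counts of members and of ligands called higher include it and are also given without it. Its second probe set, under the floor in both groups, was at 0.07 and not called. Tnfsf10 (TRAIL), a death ligand, read 6.46, 6.36 and 6.37 in control and 6.82, 6.82 and 6.86 in PFOS, a rise of 0.44 ± 0.03 (limma adjusted p = 1.85e-05). Of its other 2 probe sets, that above the floor rose by 0.17. The remaining probe set, at a mean of 5.26 and so under the floor, had the same sign. Tnfsf13b (BAFF), the B cell survival factor, rose by 0.22 ± 0.03 from 7.67 to 7.89. Of its other 2 probe sets, one above the floor was at 0.07 and not called, and one at a mean of 3.86 had the opposite sign. Tnfsf13os rose by 0.18 ± 0.04, close to the floor at 5.67 in control, and lost its call with scaling on ribosomal protein genes (0.10, limma adjusted p = 0.0540). Its second probe set, with a mean just under the floor, was at 5.61 in control and 5.62 in PFOS. That probe set was not called in a limma fit of all probe sets (limma adjusted p = 0.933).

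The costimulatory ligands were not called, 0 of 3 tested, where 66.6% of all genes were called in either direction. Cd40lg, the helper T cell partner of Cd40, was the most scattered member, from 5.89 to 6.26 in control and from 5.99 to 6.29 in PFOS, so that its change of 0.06 ± 0.11 was well within the spread (limma adjusted p = 0.668). Tnfsf4, the OX40 ligand of antigen-presenting cells, was at 5.93 in control and 5.97 in PFOS (limma adjusted p = 0.334). Tnfsf8, the CD30 ligand, was at 6.01 and 5.95; its arrays did not overlap, but the change of -0.06 ± 0.03 was not called (limma adjusted p = 0.0845). Without PFOS replicate 3 it was -0.09 and passed the threshold (limma adjusted p = 0.0311), as it did with scaling on ribosomal protein genes (-0.14, limma adjusted p = 0.00324) and with arrays quantile normalized again (-0.08, limma adjusted p = 0.0405).

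Known ligand and receptor pairs were set side by side. Of 19 pairs, listed after the values were seen, 12 had both genes tested. Both partners rose in 7 pairs, namely Tnf and Lta with Tnfrsf1a, Ltb with Ltbr, Tnfsf11 with Tnfrsf11a, and Tnfsf13b with its 3 receptors. For single genes the share called higher was 40.6% over all genes tested. The count includes Tnfsf11, which was tested only through its PFOS level. It also includes 3 pairs of Tnfsf13b, whose other probe set above the floor was not called. Tnfrsf14, which fell, is in none of the 12 pairs because LIGHT lay under the floor. In 2 pairs only the ligand rose (Tnf and Lta with Tnfrsf1b), in 2 only the receptor (Cd40lg with Cd40, Tnfsf4 with Tnfrsf4), and in 1 neither was called (Tnfsf8 with Tnfrsf8). Pairs share genes and are not independent of each other.

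**Figure D3:**
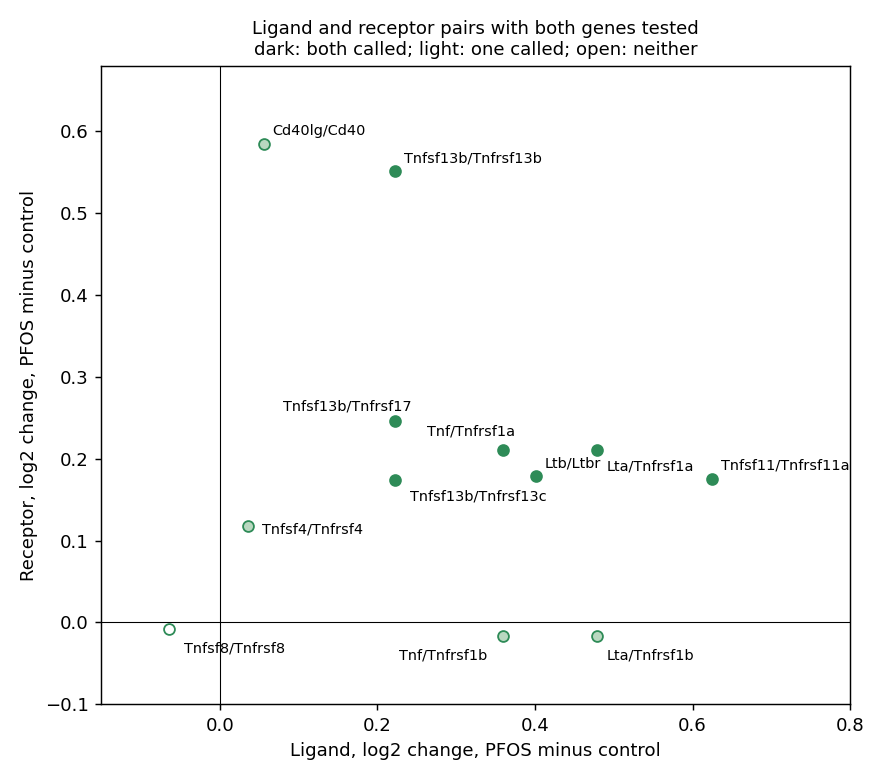
Log2 change of the ligand (horizontal axis) against that of the receptor (vertical axis) for the 12 pairs with both genes tested; dark points have both genes called, light points one, the open point neither. The pair of Cd40lg and Cd40 sits highest, with a receptor change of 0.58 beside a ligand change of 0.06.

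A group of 7 members stayed under the floor and was not tested with the rest: Fasl, Tnfsf9, Tnfsf14, Tnfrsf10b, Tnfrsf11b, Tnfrsf19 and Tnfrsf23. Their 13 probe sets averaged 3.16 to 5.61, just outside the floor at the upper end, where the lowest member tested averaged 5.76. In a limma fit of all probe sets, 3 of the 13 were called. One probe set of Fasl, the ligand of cytotoxic lymphocytes, went from 5.43 to 5.79 (limma adjusted p = 0.000165), while its other was at 4.74 in both groups. Probe sets of Tnfrsf10b, the TRAIL receptor, and Tnfrsf11b, the decoy of RANKL and TRAIL, went from 4.30 to 4.09 and from 5.03 to 4.74. No fold is given at such levels. Of 16 members with several probe sets, 5 had both signs among them (Tnfrsf11b, Tnfrsf19, Tnfrsf1b, Tnfrsf9 and Tnfsf13b). Counting only probe sets above the floor, 6 members had several and 1 of these, Tnfrsf1b, had both signs.

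Genes that act directly after the receptors mostly rose as well. Of 38 tested from a list of 42 adaptors, kinases, ubiquitin enzymes and NF-kB proteins, 25 rose and 5 fell, the median change being 0.17. Among all genes 40.6% were called higher and 26.0% lower. The kinase Map3k5 (ASK1) rose by 0.61 ± 0.02 and the adaptor Traf1 by 0.60 ± 0.02 (limma adjusted p = 6.43e-07 for both). Birc3, a ubiquitin ligase bound to TRAF2, rose by 0.53 ± 0.02 (limma adjusted p = 1.29e-06), and Casp8, the caspase that death receptors activate, by 0.41 ± 0.03 (limma adjusted p = 1.53e-05). In the other direction, Tab3, an adaptor of the TAK1 kinase, changed by -0.65 ± 0.04 and Traf4 by -0.49 ± 0.04 (limma adjusted p = 6.86e-06 and 3.30e-05). Mlkl, the executor of necroptosis, changed by -0.39 ± 0.05 and Tab1, another TAK1 adaptor, by -0.10 ± 0.02. Map3k14 (NIK), the kinase of the pathway below Cd40, Ltbr and Tnfrsf13c, was at 7.40 and 7.41 and was not called (limma adjusted p = 0.969). Nfkb2, the precursor processed in that pathway, was the fifth gene called lower, at -0.07 ± 0.03, and Relb, the partner of its product, rose by 0.33 ± 0.03.

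**Figure D4:**
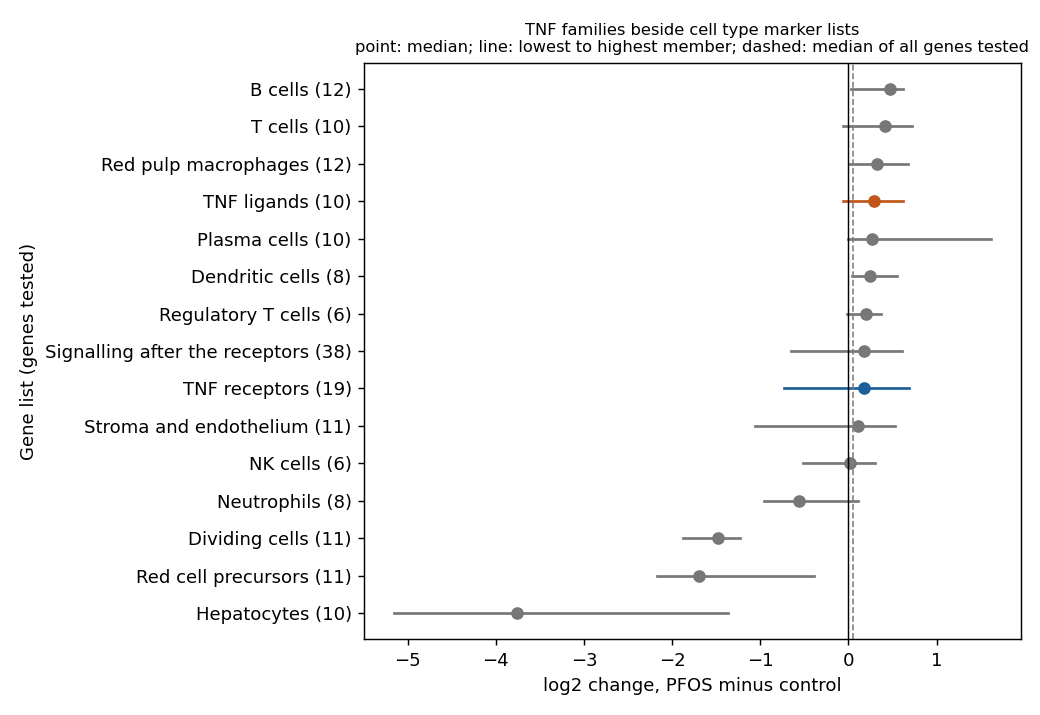
Median log2 change (points) and range from lowest to highest member (lines) of the TNF receptors (blue), the TNF ligands (orange), the signalling list and the cell type marker lists (grey), with the number of genes tested; the dashed line is the median of all genes. The TNF ligands, at 0.29, lie between the plasma cell list (0.26) and the red pulp macrophage list (0.32). That place depends on single members, as the ligand median is 0.22 without Tnfsf11 and 0.36 without Tnfsf13os. The TNF receptors lie beside the signalling list, both at 0.17, and under regulatory T cells (0.20). The TNF ligands and receptors are far from red cell precursors at -1.70 and hepatocytes at -3.75.

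The other cell types that carry or make these proteins were as follows. Red pulp macrophage markers were higher in 10 of 12 cases with a median of 0.32, averaging 10.13 to 10.14 in control and 10.43 to 10.45 in PFOS. Dendritic cell markers were higher in 6 of 8 cases with a median of 0.24, from 7.57 to 7.64 in control to 7.86 to 7.87 in PFOS. Stromal and endothelial markers were mixed, with 6 higher and 3 lower of 11, averaging 9.45 to 9.48 and 9.41 to 9.44. Natural killer cell markers were mixed too, with 2 higher and 2 lower of 6, averaging 7.14 to 7.17 and 7.12 to 7.14. No marker is at 0 on this scale, and the part of these cells in the members' changes was not tested.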

How the data were processed

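RNA of 6 spleen samples was read on Affymetrix arrays, 1 per sample, from 6 ug of total RNA each, per the labels' protocols. The authors deposited RMA values on a log2 scale, per the submitters' processing notes; the sources used here give neither the RMA version nor a filter. Of 45101 probe sets, 64 are array controls, 34945 have 1 gene symbol in the platform annotation, 932 have several and 9160 none. Of those with 1 symbol, 34741 matched the RefSeq gene table of GRCm38.p6 and 0 symbols changed. A gene was represented by its brightest probe set (mean of the 6 arrays) above a floor at the 40th percentile, for 13101 genes in all.

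Groups were compared across all genes with limma 3.58.1 (lmFit, eBayes; R 4.3.3), two-sided. The procedure was also run on simulated arrays. These had independent noise and far fewer changed genes than were called here, so they do not check it under such broad change. Receptors, ligands, marker lists and signalling genes were chosen with earlier results of these data known; the role groups and pairs were written after the members' values were seen. Values on every array are given for the 8 receptors and 5 ligands with the largest called change and for every called member that is lower; in the signalling list the 4 called genes with the smallest p in each direction are named, and Map3k14, Nfkb2 and Relb were added after their values were seen. Alternatives covered the filter, scaling, variance model, probe set, threshold, replicate block and leaving out each array. The number of arrays limits the precision.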

Additional observations from a re-analysis of the deposited data

How the results depend on the processing

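Of 509 values of single members under the alternatives, 481 kept their side of the threshold and, where called, their direction. Values not called could change sign within that count, as Fas did with scaling on ribosomal protein genes (0.04 to -0.04). Requiring at least 1.2-fold left 10 members higher and 1 lower (receptors 5 and 1), and 8 of 38 signalling genes higher and 3 lower. Of all genes, 14.4% were higher and 13.1% lower there, and 11 members lost their call. Scaling on ribosomal protein genes gave 4 members lower, 1 of them a ligand, and medians of 0.093 for receptors and 0.21 for ligands; 4 members lost a call and 2 gained one. Scaling on the labelling spikes left 1 member, a receptor, and 1 signalling gene lower, with medians of 0.71 and 0.83; Tnfrsf21 (0.37), Tnfrsf1b (0.52), Tnfrsf8 (0.53) and Tnfsf8 (0.47) turned to higher. Both scalings add a constant to every gene by construction. Without the filter the medians were 0.13 and 0.22. The stricter filter tests fewer genes and left only Lta, Ltb, Tnf and Tnfsf13b among the ligands. All 4 were higher (median 0.38), where 44.7% of all genes were. Arrays quantile normalized again gave 1 ligand lower and a ligand median of 0.31, and the mean over probe sets a ligand median of 0.24; the cause was not tested. Without Tnfsf13os the ligand median was 0.36 and without Tnfsf11 0.22, both chosen after seeing the data. Members that left the table under a filter or probe set choice have no value there.

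Leaving out each array gave 20 members higher throughout and 2 to 3 lower, 13 receptors higher and 2 lower, 7 ligands higher and 0 to 1 lower, 20 to 24 signalling genes higher and 4 to 5 lower, a receptor median of 0.15 to 0.18 and a ligand median of 0.28 to 0.31. Over all genes the shares were then 36.8% to 39.8% higher and 23.8% to 25.3% lower.

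With the replicate block, 20 members were higher and 2 lower, where 42.1% and 27.0% of all genes were, and no member changed its call. Deviations of same-numbered arrays correlated at 0.32, 0.14 and 0.097, and not every array correlated best with its own number, so the numbers were not taken as pairs.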

Other observations

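Other genes of the families that the rule does not name were Cd70, Eda, Ngfr, Edar, Eda2r and Relt, of which 3 were tested. Eda, a ligand of skin appendage development, averaged 6.59 in control and 7.04 in PFOS and rose by 0.45 ± 0.03 (limma adjusted p = 6.15e-06). Relt, a receptor of haematopoietic tissue, changed by -0.15 ± 0.04 (limma adjusted p = 0.00855), and Ngfr, the neurotrophin receptor found on follicular dendritic cells, rose by 0.14 ± 0.05 (limma adjusted p = 0.0468) with overlapping arrays.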
